A study of Harpegnathos saltator with 35 samples.

Results

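Among 14001 genes measured in neuronal cultures from the brain of the jumping ant, Harpegnathos saltator, 22 were higher after 24 h of 20-hydroxyecdysone (20E, the insect moulting steroid) but not in long-term 20E. They were picked for a higher level after 24 h of 20E in cultures kept before that in juvenile hormone III (JH3, a sesquiterpenoid insect hormone), for at most a small rise after 6 h, and for no like rise in cultures that had lived in 20E for 5 days. The genes were chosen on these same measurements. FPKM is the number of fragments scaled to gene length and library depth, and M here is log2(group mean FPKM + 1). Of the 14001 genes, 9873 reached 1 FPKM in at least 3 libraries, 347 of these had M at least 0.7 higher at 24 h of 20E than in the JH3 baseline, and in 223 every 24 h library also lay above every JH3 baseline library and every library from 30 min of 20E. A rise of M under 0.4 at 6 h left 93 genes. Of the 93, 60 had M at least 0.4 higher in the 20E baseline than in the JH3 baseline, and are called the kept genes below. The remaining 33 lost another 11 in which 24 h of JH3 had raised M by 0.3 or more over the 20E baseline, which gave the 22. LOC112589664 (Kr-h1, a zinc finger gene induced by juvenile hormone) was also barred by name, but it did not meet the limits in any case.

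Polyadenylated RNA was sequenced from 35 cultures of dissociated central brain cells. Each culture spent 5 days in 2 µM 20E or 2 µM JH3, in a medium that also held insulin, progesterone and, at first, honeybee pupal extract, so these were common to all groups. The JH3 baseline (n = 4) and the 20E baseline (n = 5) then received the solvent DMSO for 30 min. JH3 cultures were switched to 2 µM 20E for 30 min (n = 5), 6 h (n = 6) or 24 h (n = 4), and 20E cultures to 2 µM JH3 for 30 min (n = 3), 6 h (n = 5) or 24 h (n = 3). Replicates were separate cultures, per the series' design text, and the labels do not name the strain, age or caste of the donor ants. The solvent was given for 30 min in both baselines, so 24 h of hormone and 24 h after a change of medium cannot be told apart within the JH3 cultures.

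20E acts through the nuclear receptor pair Ecr and usp, which switches on a first set of regulators, E75 and Hr4 among them, that in turn drive a later wave of genes. JH3 modifies that cascade and often opposes it. In the insect brain both hormones are known for remodelling neurons at metamorphosis, and in this ant they are known to differ between workers and reproductive females.

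Libraries held 5938007 to 22650435 reads assigned to genes (median 10844903; recovered from the spacing of FPKM values), and the 22 genes had a median of 1703 reads in the median library. The sequencing flow cell, written A, B or C here from the sample descriptions, was not balanced: the JH3 baseline came from A and B, 24 h of 20E from B and C, and 24 h of JH3 from C alone. Each library correlated with the median of the others in its group at r between 0.941 and 0.990 over the 9873 genes, and 4 libraries were under 0.95: 20E baseline replicate 4 (0.941), replicate 2 from 30 min of JH3 (0.943), replicate 5 from 6 h of JH3 (0.944) and replicate 5 from 30 min of 20E (0.949). Without these 4 the same limits gave 24 genes, 19 of them among the 22, and Lar, dnr1 and LOC112588635 were lost. JH3 baseline replicate 4 (0.956) and replicate 5 from 30 min of 20E were also left out as a pair, named from earlier results of these data, which gave 24 genes, 18 of them among the 22, and lost Kdsr, LOC105185337, LOC109504036 and stumps. Of the marker genes of the labelled cell type, 9 neuronal genes, synaptic nSyb, Syt1 and brp included, were measured in these cultures with summed levels of 488 to 718 FPKM in the JH3 baseline and 355 to 875 FPKM in the 20E baseline, and the glial factor repo was present at 7.06 to 23.9 FPKM in the JH3 baseline.

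The 22 genes held 9 with a symbol: Lar, kuz, Gli, stumps, dap, dnr1, Gbs-76A, CAH1 and Kdsr. The other 13 are known here by number only, 2 of them as long noncoding RNAs (LOC105186473 and LOC112588635), against 505 long noncoding RNAs (5.11%) among the 9873 genes. Mean levels in the JH3 baseline ran from 0.289 to 139.9 FPKM, with a median of 12.6 FPKM. After 24 h of 20E the ratio of mean FPKM to the JH3 baseline had a median of 2.02 and ran from 1.69 in LOC105182091 to 6.31 in LOC105186473, and 11 of the 22 genes at least reached a ratio of 2. These values chose the genes and are given as a description.

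**Figure D1:**
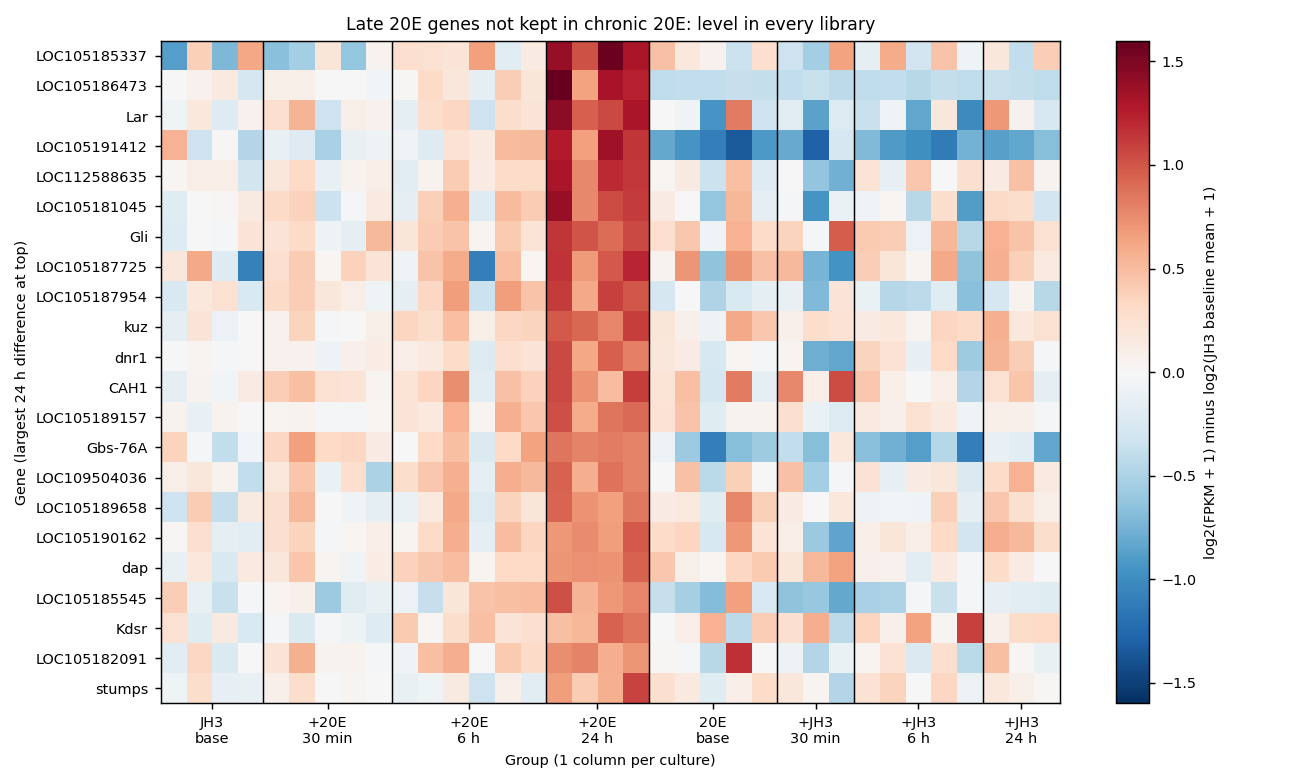
Log2(FPKM + 1) of each of the 22 genes (rows) in each of the 35 cultures (columns, by group), relative to the log2 of the JH3 baseline mean + 1 on a colour scale from blue (lower) to red (higher). The 4 columns of 24 h of 20E are red in every row, and LOC105191412, LOC105186473 and Gbs-76A are blue in most columns of the cultures kept in 20E.

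3 genes with a symbol code for proteins of the cell surface, with mean levels 1.95 to 2.32 times the JH3 baseline at 24 h of 20E. Lar is a receptor tyrosine phosphatase that guides axons and builds synapses in Drosophila. Its level was 44.9, 53.4, 40.9 and 49.8 FPKM in the JH3 baseline and 129, 92.2, 98.9 and 119 FPKM after 24 h of 20E. In the 20E baseline it was 47.3, 45.5, 24.1, 84.8 and 37.4 FPKM. Every 24 h library was thus higher than every baseline library, but 20E baseline replicate 4 came close and replicate 3 was lowest of all. The group means were 47.2 ± 5.503 (SD, n = 4) in the JH3 baseline, 109.8 ± 17.2 (SD, n = 4) at 24 h and 47.8 ± 22.6 FPKM (SD, n = 5) in the 20E baseline, a ratio of 2.32 at 24 h and a difference of M of 0.02 after 5 days. At 30 min and 6 h of 20E Lar lay at 37.3 to 69.1 FPKM and 37.4 to 59.9 (median 55.96) FPKM, overlapping the JH3 baseline.

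kuz (kuzbanian) is the membrane metalloprotease that cleaves the Notch receptor in flies. Its level was 43.9, 55.8, 45.2 and 48.6 FPKM in the JH3 baseline and 96.4, 92.3, 84.02 and 105 FPKM after 24 h of 20E. In the 20E baseline kuz was at 55.3, 51.2, 45.6, 74.2 and 65.7 FPKM. The 24 h libraries did not overlap either baseline, and the 20E baseline overlapped the JH3 baseline with 2 libraries above it. Group means of kuz were 48.4 ± 5.33 (SD, n = 4), 94.4 ± 8.65 (SD, n = 4) and 58.4 ± 11.5 FPKM (SD, n = 5), in that order.

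Gli (gliotactin) is a cholinesterase-like adhesion protein of tricellular junctions, named for its place in the glial sheath of fly nerves. It stood at 6.59, 7.704, 7.61 and 9.04 FPKM in the JH3 baseline and at 18.4, 16.5, 15.3 and 17.1 FPKM after 24 h of 20E. The 20E baseline held 9.49, 10.8, 7.31, 11.8 and 9.73 FPKM of Gli. The 24 h libraries were again separate from both baselines. The 20E baseline overlapped the JH3 baseline only through its library at 7.31 FPKM, and its other libraries lay above the JH3 baseline. The mean ratio at 24 h was 2.18, with means of 7.74 ± 1.01 and 16.8 ± 1.29 FPKM (SD, n = 4 each). Gli is also among the 8 glial markers measured: their summed level was 75.99 to 113 FPKM in the JH3 baseline and 87.0 to 116 FPKM at 24 h, and repo, which defines glia, was at 7.06 to 23.9 FPKM and 10.2 to 14.9 FPKM. The glial sum and repo overlapped between the groups. The choice of the genes required Gli not to overlap there, so nothing is read from that contrast. In bulk RNA, fewer cells of a type and less RNA per cell cannot be told apart, and this applies to each level given here.

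Another 3 named genes act inside the cell in signalling or division. stumps encodes the adaptor that carries the signal of fibroblast growth factor receptors in Drosophila. Its level was 4.55, 6.06, 4.33 and 4.37 FPKM in the JH3 baseline and 8.25, 6.75, 7.67 and 11.3 FPKM at 24 h of 20E. The 20E baseline was at 5.98, 5.48, 4.097, 5.25 and 6.14 FPKM. Replicate 4 at 24 h was the highest by far, and JH3 baseline replicate 2, at 6.06 FPKM, was near the lowest 24 h library. stumps was the only one of the 22 whose M at 6 h was under the JH3 baseline (-0.07).

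dap (dacapo) is the cyclin-dependent kinase inhibitor that stops cells from dividing as they differentiate. It was at 19.4, 23.8, 17.8 and 23.6 FPKM in the JH3 baseline, and 35.1, 35.9, 35.3 and 41.6 FPKM at 24 h of 20E. Cultures of the 20E baseline had 28.9, 22.6, 21.7, 26.9 and 28.5 FPKM of dap. The levels in 3 of the 24 h libraries lay within 1 FPKM of each other, and no library of either baseline reached them. dap at 6 h spanned 21.9 to 30.1 (median 27.1) FPKM, overlapping both baselines and below every 24 h library.

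dnr1 encodes a RING-finger protein that restrains the caspase Dredd and with it the Imd immune pathway in flies. The JH3 baseline was tight at 19.9, 20.7, 19.5 and 19.98 FPKM, and 24 h of 20E gave 42.9, 31.2, 39.6 and 35.6 FPKM. The 20E baseline, at 22.9, 22.1, 16.7, 20.4 and 19.8 FPKM, lay around the JH3 baseline. dnr1 after 24 h of JH3 was 29.6, 26.7 and 19.6 FPKM, a difference of M of 0.30 (0.299 before rounding) from the 20E baseline, which is just inside the limit of 0.3.

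The last named genes are enzymes or their regulators. Gbs-76A is a glycogen-targeting subunit of protein phosphatase 1, which activates glycogen synthase. Its level was 6.39, 4.69, 3.41 and 4.61 FPKM in the JH3 baseline and 9.43, 9.03, 9.21 and 9.03 FPKM at 24 h of 20E. In the 20E baseline it was 4.396, 2.85, 1.71, 2.59 and 2.901 FPKM. The 24 h libraries lay within a narrow span above all others of the JH3 cultures, and 4 of the 5 libraries of the 20E baseline lay below every JH3 baseline library. The mean at 24 h was 3.18 times the 20E baseline mean.

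CAH1 is a carbonic anhydrase, an enzyme that interconverts carbon dioxide and bicarbonate. It was at 1.83, 2.29, 2.06 and 2.45 FPKM in the JH3 baseline and at 5.55, 4.22, 3.45 and 5.800 FPKM at 24 h of 20E. The 20E baseline had 2.68, 3.397, 1.59, 4.61 and 1.85 FPKM. Its groups were the least apart of those named: 20E baseline replicate 4 lay above 2 of the 24 h libraries, and the lowest 24 h library, at 3.45 FPKM, was just above the highest library from 30 min of 20E, at 3.42 FPKM. Kdsr is a ketoreductase of sphingolipid synthesis. It was at 7.41, 5.202, 6.85 and 5.01 FPKM in the JH3 baseline, 8.93, 9.24, 12.6 and 11.9 FPKM at 24 h of 20E and 6.17, 6.65, 9.48, 4.33 and 8.35 FPKM in the 20E baseline. 20E baseline replicate 3 was above 2 of the 24 h libraries of Kdsr, and the 6 h libraries, at 6.25 to 8.97 (median 7.64) FPKM, touched the lowest of them.

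Among the numbered genes LOC105191412 was the most abundant of the 22 and had the lowest difference of M in chronic 20E (-1.01). Its level was 206, 111, 142 and 101 FPKM in the JH3 baseline and 337, 221, 361 and 311 FPKM at 24 h of 20E. The 20E baseline had 78.98, 72.3, 65.2, 54.6 and 73.4 FPKM. The 3 groups did not overlap. The means were 139.9 ± 47.4, 307 ± 61.3 (SD, n = 4 each) and 68.9 ± 9.37 FPKM (SD, n = 5), so its mean was 4.46 times higher at 24 h than after 5 days of the same hormone. As a ratio of means the 20E baseline was at 0.493 of the JH3 baseline.

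The long noncoding RNA LOC105186473 showed the same order at a low level, and its ratio of the 20E baseline to the JH3 baseline mean, 0.114, was the lowest of the 22. It was at 0.367, 0.437, 0.524 and 0.132 FPKM in the JH3 baseline and 3.47, 1.12, 2.395 and 2.22 FPKM at 24 h of 20E. In the 20E baseline it was at 0.0292, 0.0365, 0.0343, 0.0609 and 0.0467 FPKM, which rests on 6 to 11 reads a library and 44 reads in all, against 199 to 514 reads a library at 24 h. In the 16 cultures kept in 20E, whatever they were then given, it stayed between 1 and 18 reads and under 0.07 FPKM, below every library of the cultures kept in JH3. LOC105191412 and LOC105186473 were the 2 genes of the 22 whose 20E baseline libraries all lay below every JH3 baseline library. Both baselines were used to choose the genes, and the like share over all genes was not counted.

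LOC105185337 had the largest difference of M at 24 h (1.33), but a scattered baseline. It was at 0.204, 1.89, 0.339 and 2.41 FPKM in the JH3 baseline, 4.78, 3.46, 5.57 and 4.45 FPKM at 24 h of 20E and 2.06, 1.49, 1.31, 0.737 and 1.65 FPKM in the 20E baseline. JH3 baseline replicates 2 and 4 were higher than the other 2 there, and the 24 h libraries were above all of them. The remaining 10 numbered genes had JH3 baseline means from 0.289 to 38.8 FPKM, means at 24 h from 1.33 to 84.1 FPKM and ratios from 1.69 to 4.61. The noncoding LOC112588635 is one of them, at 6.51, 6.94, 6.93 and 5.02 FPKM in the JH3 baseline, 17.1, 11.5, 15.9 and 15.2 FPKM at 24 h and 6.505, 7.12, 4.79, 9.21 and 5.37 FPKM in the 20E baseline, where the 24 h libraries were again above all others.

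**Figure D2:**
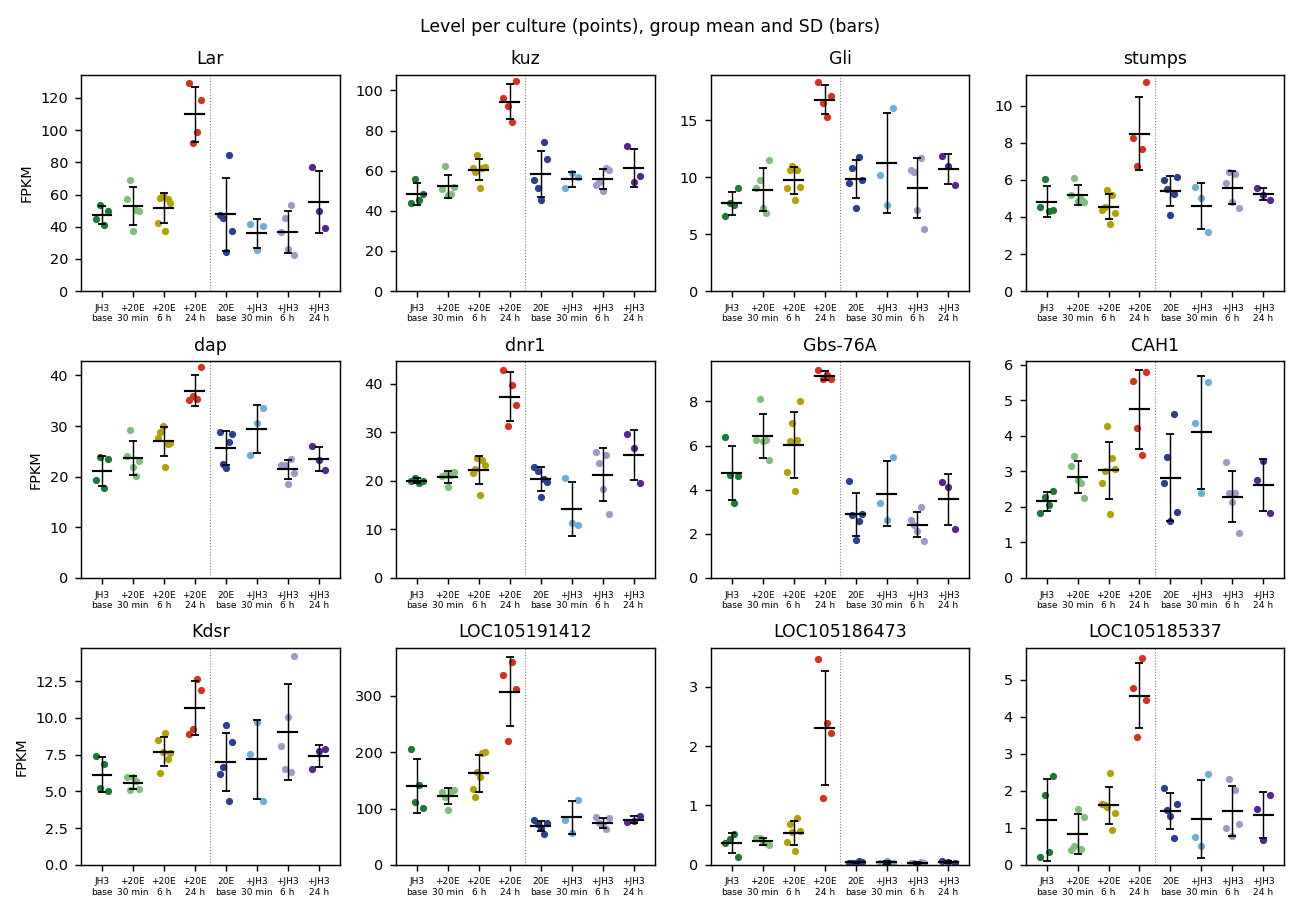
FPKM (vertical axes, linear from 0) of 12 of the 22 genes in each culture, by group along the horizontal axis; points are cultures, bars are group means with SD, and the dotted line parts JH3 cultures (left) from 20E cultures (right). In each panel the 24 h of 20E group (red) has the highest mean, and Gbs-76A, LOC105191412 and LOC105186473 are lower in the 20E baseline than in the JH3 baseline.

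The genes split by where chronic 20E left them. In the 20E baseline 17 of the 22 had a higher mean M than in the JH3 baseline and 5 a lower one, with differences from -1.01 (LOC105191412) to 0.34 (LOC105187725) and a median of 0.13. For 10 genes the 2 baselines were within 0.2 of each other. The 24 h level exceeded the 20E baseline by 0.45 to 2.14 in M, with a median of 0.72. In 15 genes every 20E baseline library lay below every 24 h library. In the other 7 a library of the 20E baseline reached the lowest 24 h library, and 20E baseline replicate 4 did so for 6 of them. These groups were used to choose the genes and the like shares over all genes were not counted, so nothing is read from these counts.

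Differences from the JH3 baseline were small at the earlier times. M was higher at 6 h of 20E than in the JH3 baseline for 21 of the 22 genes, with a median difference of 0.28 where the limit was 0.4, against -0.01 over all genes. At 30 min the median was 0.12, against 0.01 over all genes, and 18 of the 22 were above the baseline. The choice required the JH3 baseline to be low against 24 h, which favours levels above it, so nothing is read from this count. After 24 h of JH3 in the 20E cultures the median difference from the 20E baseline was 0.05. Since groups were chosen by these limits, no test is given for them. For orientation, limma, a linear model across genes, adjusted for flow cell, called 19 of the 22 higher at 24 h of 20E, where 3.18% of all genes were called higher, and 3 lower in the 20E baseline than in the JH3 baseline (LOC105191412, Gbs-76A and LOC105186473), where 11.4% of all genes were called lower. Both comparisons were used to choose the genes, so nothing is read from these counts.

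**Figure D3:**
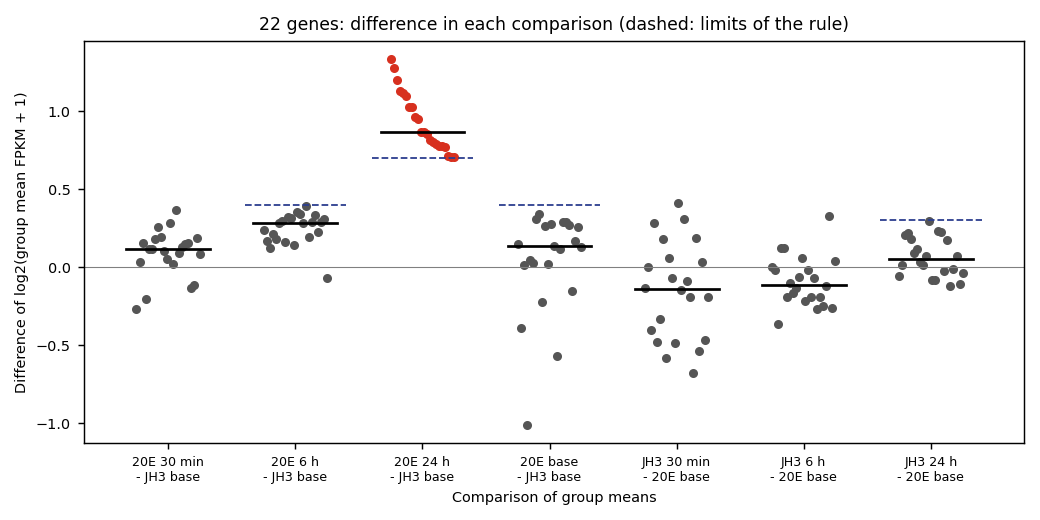
Difference of M, log2(group mean FPKM + 1), for each of the 22 genes (points, in the order of their 24 h difference) in 7 comparisons of group means along the horizontal axis; black bars are medians and dashed lines are the limits that chose the genes. At 24 h of 20E (red) the points run from 0.70 to 1.33, and in the other 6 comparisons the medians lie between -0.14 and 0.28.

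Several genes sat near a limit. Just inside the 24 h limit were stumps (0.70) and LOC105182091 (0.71), and just outside it LOC109504449 (0.70, under the limit before rounding) and LOC105186218 (0.69). The lowest 24 h library of LOC105182091, at 16.6 FPKM, was above its highest library from 30 min of 20E, at 16.5 FPKM, while that of Dora, at 39.3 FPKM, was below 40.2 FPKM and that of LOC105187831, at 24.3 FPKM, below 25.1 FPKM. At 6 h LOC109504036 (0.39) and CAH1 (0.35) were inside and LOC105184636 and LOC105181179 (both 0.41) outside. For the 20E baseline LOC105187725 (0.34) and Gli (0.31) were inside and LOC112589987 (0.41) and LOC105188211 (0.43) outside. For 24 h of JH3 dnr1 (0.30) and Gbs-76A (0.23) were inside and CARPB and LOC105191861 (both 0.31) outside. When each of the 27 libraries behind the limits was left out in turn, between 15 and 22 of the genes were chosen again, and Gli, kuz, dap, LOC105186473, LOC105181045 and LOC105190162 were chosen every time. The other 16 dropped out at least once, LOC109504036 most often, in 8 of the 27. Without replicate 2 at 24 h, which was the lowest of its group in 13 of the 22 genes, 35 genes met the limits.

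The 8 libraries from 30 min and 6 h of JH3 in 20E cultures took no part in choosing the genes beyond the first filter. That filter, 1 FPKM in at least 3 libraries, counted all 35 libraries. Levels in the 8 libraries are given as a description. Of the 176 values of the genes in these libraries, 135 were at or under the highest JH3 baseline library and 6 were at or above the lowest 24 h library. The choice of the genes set the lowest 24 h library high, and the like share over all genes was not counted. Nothing is therefore read from these counts. The 6 lay in 3 genes. Gli reached 16.1 FPKM in replicate 3 from 30 min of JH3, where the lowest 24 h library had 15.3 FPKM. CAH1 reached 4.37 FPKM in replicate 1 and 5.53 FPKM in replicate 3 of that group, against 3.45 FPKM. Kdsr reached 9.69 FPKM in its replicate 2 and 10.1 and 14.2 FPKM in replicates 3 and 5 from 6 h of JH3, against 8.93 FPKM. Replicate 3 from 30 min of JH3 also had the highest glial sum of its group, 169 FPKM against 75.1 and 85.5 FPKM, and the highest repo, 50.02 FPKM against 8.73 and 19.9 FPKM; the part of this in the levels of Gli and CAH1 was not tested.

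Giving JH3 to 20E cultures for 30 min or 6 h called none of the 22 by limma (Benjamini-Hochberg adjusted over 9873 genes). At 30 min against the 20E baseline 0 of the 22 and 0 of all genes (0%) passed an adjusted p of 0.05. At an unadjusted p under 0.05 limma had 4 of the 22 and 1008 of all genes (10.2%), and voom, limma's weighted fit on the recovered reads, passed 0 genes (0%) after adjustment. The median difference of the 22 was -0.16, against -0.00 over all genes, and ran from -0.71 (LOC105190162) to 0.39 (CAH1). LOC105190162 was at 29.5, 17.8 and 14.7 FPKM at 30 min of JH3 and 33.5, 34.98, 22.7, 44.8 and 31.7 FPKM in the 20E baseline, with 2 of the 3 libraries below the whole baseline (-0.71 ± 0.19 SE, adjusted p = 0.285 in limma). Without replicate 1 of the 30 min group 129 genes passed, 3 of the 22 among them, all lower: LOC105190162 (-1.02), LOC112588635 (-0.78) and dnr1 (-0.76).

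At 6 h of JH3 against the 20E baseline limma again passed 0 of the 22, and 5 of all genes (0.0506%). At an unadjusted p under 0.05 there were 2 of the 22, dap (-0.26 ± 0.12 SE) and Kdsr (0.40 ± 0.19 SE), both with an adjusted p of 0.522 in limma, and 755 of all genes (7.65%). voom passed 5 genes (0.0506%) and none of the 22. The median difference of the 22 was -0.14. Between 6 h and 30 min of JH3, limma passed 0 of the 22 and 9 of all genes (0.0912%), with 6 of the 22 and 644 of all genes (6.52%) at an unadjusted p under 0.05, and voom passed 12 genes (0.122%) and none of the 22. Leaving out replicate 1 from 30 min of JH3 changed this last comparison to 148 genes and 4 of the 22, with dnr1, LOC112588635 and LOC105190162 higher at 6 h (0.80, 0.90 and 0.78) and dap lower (-0.57).

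The libraries taken at 30 min gave a second look at the 5 days in culture, in 20E cultures (given JH3, n = 3) against JH3 cultures (given 20E, n = 5). Here 5 of the 22 genes were lower in the 20E cultures and 0 higher, where 11.3% of all genes were called lower and 8.41% higher (limma, adjusted p under 0.05). The 5 were dnr1 (-0.56 ± 0.17 SE, adjusted p = 0.0195), LOC112588635 (-0.58 ± 0.18 SE, 0.0226), Gbs-76A (-0.65 ± 0.21 SE, 0.0302), LOC105186473 (-0.44 ± 0.15 SE, 0.0338) and LOC105190162 (-0.57 ± 0.19 SE, 0.0363). The JH3 cultures of this comparison were used in choosing the genes, as libraries that had to lie below the 24 h level. Genes with M at least 0.4 higher in the 20E baseline had also been removed. That disfavours higher calls in this like comparison, so nothing is read from these counts or their direction. voom, with 20.0% of all genes called, had the same 5 and also LOC105185545 and LOC105191412, all lower. The agents just given also differ between the 2 groups.

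LOC105186473 was at 0.458, 0.459, 0.377, 0.373 and 0.326 FPKM in the JH3 cultures and 0.0358, 0.0627 and 0.02395 FPKM in the 20E cultures, with no overlap. Its difference was -3.37 by voom, which adds no 1 to FPKM before the logarithm. LOC105186473 and LOC105189157 reached 1 FPKM only at 24 h of 20E, so they passed the filter only through the group they were chosen for. Outside that group LOC105186473 was at most at 0.79 FPKM, and nothing is read from its call. dnr1 was at 21.05, 21.1, 18.8, 21.2 and 21.8 FPKM in the JH3 cultures and 20.6, 11.3 and 10.8 FPKM in the 20E cultures, where replicate 1 lay among the JH3 cultures and the other 2 far below them. Gbs-76A was at 6.27, 8.09, 6.197, 6.27 and 5.34 FPKM and 3.38, 2.61 and 5.47 FPKM, overlapping at replicate 3 of the 20E cultures. These calls depended on few libraries: 0 of the 5 remained when the fit held only these 2 groups (1041 genes called in all) or without replicate 2 of the 20E cultures (985 genes), which was also among the 4 libraries under r 0.95. Without those 4 libraries none of the 5 was called (adjusted p 0.099 to 0.188 in limma), and 1 of the 22, Gli, was called higher in the 20E cultures (0.57). With quantile normalization LOC105186473 (adjusted p = 0.0953 in limma) and LOC105190162 (0.0561) were not called, and dap was called higher (0.41). Without their replicate 3 only Gbs-76A of the 5 was called, without their replicate 1 dnr1, LOC112588635 and LOC105190162, without JH3 culture replicate 1 dnr1, LOC112588635 and Gbs-76A, and without JH3 culture replicate 2 only dnr1.

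The kept genes lay higher than the 22 in these same libraries. Of the 60, 27 were higher in the 20E cultures and 0 lower, with a median difference of 0.61, against -0.38 for the 22 and 0.01 for all genes. The 2 sets were parted by their level in the 20E baseline, and only the 22 also had to meet the limit at 24 h of JH3. Neither of those groups shares a library with this comparison, but both sets had its JH3 cultures as a ceiling under the 24 h level. Sets parted by a 5-day difference are disposed to differ again in a second 5-day comparison. The difference between the sets was not tested. Neuronal markers moved here as well: 4 of the 9 were lower in the 20E cultures and none higher, with a median difference of -0.46, and their summed level was 350.2 to 501 FPKM in the 20E cultures and 573 to 873 FPKM in the JH3 cultures. Their part in the 5 calls was not tested.

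**Figure D4:**
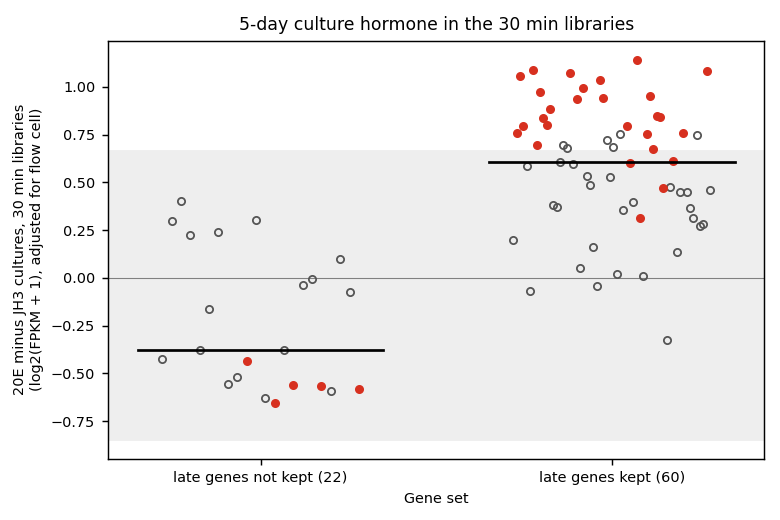
Difference between 20E and JH3 cultures in the libraries taken at 30 min (vertical axis, log2(FPKM + 1), limma, adjusted for flow cell) for the 22 late genes not kept and the 60 late genes kept (points; horizontal axis, gene set); filled red points passed an adjusted p of 0.05, black bars are medians and the grey band holds the 5th to 95th percentile of all tested genes. The median is -0.38 for the 22 and 0.61 for the 60, and the called points lie below 0 on the left and above 0 on the right.

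The 22 were long genes. The length behind their FPKM values, as recovered from the steps, had a median of 8.67 kb, against 4.22 kb over the tested genes and 8.09 kb over the 60 kept genes, and 20 of the 22 were longer than the median tested gene. Libraries differed in how expression ran with gene length, from -0.18 to 0.13 log2 units per factor of 2 in length, and the level of the 22 followed that trend across libraries. Of the 5 libraries of the 20E baseline, replicate 4, with the highest trend (0.13), had the 22 at a median of 0.43 above the JH3 baseline, and replicate 3, with the lowest (-0.14), had them 0.31 below it. The JH3 baseline had trends of -0.09 to 0.03, with a mean of -0.03. The libraries from 24 h of 20E had trends of 0.01 to 0.07, with a higher mean of 0.04, within the range of all other groups together. In these 24 h libraries the 22 were 0.72 to 1.04 above the JH3 baseline. The genes were chosen for being high in these 4 libraries, so their place above the other libraries, which reached 0.48, was fixed by that choice and shows nothing about the trend.

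With the length trend of the library in the fit, the 24 h differences were smaller for 20 of the 22 genes. The median went from 0.88 to 0.78, 13 genes were at 0.7 or more, and Lar went from 1.18 ± 0.29 SE to 0.81. LOC105182091 went from 0.63 to 0.35 and Kdsr from 0.71 to 0.93. Within flow cell B, which held 2 libraries of the JH3 baseline and 2 of 24 h of 20E, the difference of M at 24 h had a median of 0.85 and a lowest value of 0.51, and was at 0.7 or more in 15 of the 22. With the same covariate 8 of the 22 were called in the libraries taken at 30 min, where 12.6% of all genes were called higher and 14.6% lower. Of the 8, 3 were higher in the 20E cultures (Gli 0.49, CAH1 0.62 and dap 0.40) and 5 lower. The 5 lower were dnr1, Gbs-76A, LOC105190162, LOC112588635 and LOC105191412, while LOC105186473 was no longer called (adjusted p = 0.0545 in limma). Between 6 h and 30 min of JH3, with 0.679% of all genes called, CAH1 (-0.71) and dap (-0.44) were called lower at 6 h and dnr1 higher (0.57).

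**Figure D5:**
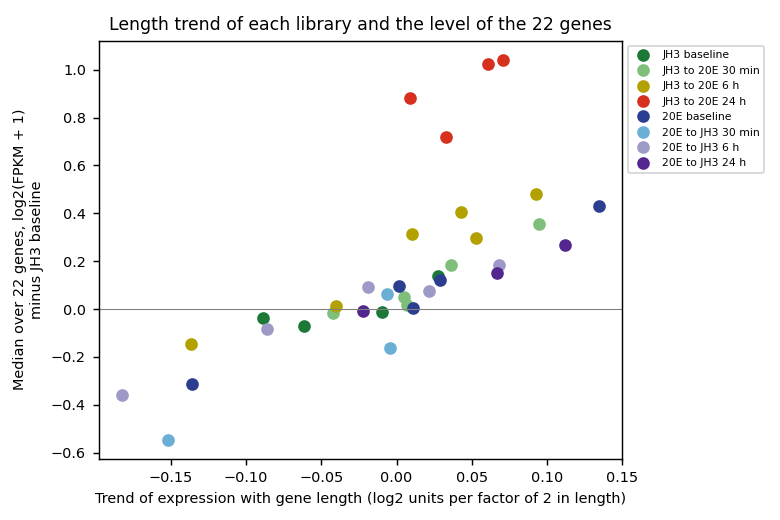
Median over the 22 genes of the difference in log2(FPKM + 1) from the JH3 baseline (vertical axis) against the slope of expression on gene length in that library (horizontal axis, log2 units per factor of 2 in length); points are the 35 libraries, coloured by group. The 24 h of 20E libraries (red) lie at 0.72 to 1.04, above the other libraries as the choice of the genes requires, and the other libraries rise from -0.55 to 0.48 with the trend.

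Most known partners of the named genes stayed below a difference of 0.7 at 24 h. Partner sets were drawn up from fly biology once the genes were known, and 69 partners were measured. Their median difference of M at 24 h of 20E was 0.06, against -0.02 over all genes. Of the 69, 8 reached 0.7, a larger share than the 3.51% of all genes. The 16 other genes of the Notch pathway had a median of 0.08, with the ligand Dl at 0.89. For the 9 partners and relatives of Lar the median was 0.36, led by the receptor phosphatase Ptp10D (1.42). Septate junction genes (11) had a median of 0.30, with l(2)gl and bark both at 0.83. The 8 cell cycle genes set beside dap had a median of -0.27 and the 6 sphingolipid genes beside Kdsr -0.13. In the Imd pathway (7 genes, median 0.01) the adaptor imd stood at 1.40. After 5 days in 20E the difference of M was 1.06 in Dl, 1.03 in imd, 0.95 in l(2)gl, 0.41 in bark and 0.29 in Ptp10D. Of these only Ptp10D was under the limit of 0.4. CARPB, a carbonic anhydrase relative of CAH1, was at 0.75 at 24 h, 0.37 at 6 h and 0.34 after 5 days. It missed the set only at 24 h of JH3 (0.31, where the limit was 0.3). The other relative, CARPA, was at -0.63 at 24 h of 20E.

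Glycogen metabolism held a gene with the same course as Gbs-76A. GlyS, glycogen synthase, was at 3.61 ± 0.69 FPKM in the JH3 baseline and 9.23 ± 1.59 FPKM at 24 h of 20E (SD, n = 4 each), and 1.77 ± 0.78 FPKM in the 20E baseline (SD, n = 5), a difference of M of 1.15 at 24 h and -0.73 after 5 days. It missed the set because M was 0.51 higher at 6 h. Pgm1, phosphoglucomutase, was 1.63 higher in M at 24 h and 1.34 higher after 5 days, and the other 4 genes of the set did not reach 0.7. Ptp10D was excluded in the same way as GlyS, with 0.50 at 6 h, 1.42 at 24 h and 0.29 after 5 days, from 12.3 ± 2.57 FPKM in the JH3 baseline to 34.7 ± 6.31 FPKM at 24 h (SD, n = 4 each). GlyS and Ptp10D were singled out after their values were seen.

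Ecdysone response genes changed widely at 24 h of 20E. Of 16 measured, 8 rose and 3 fell at 24 h of 20E against the JH3 baseline (limma, adjusted p under 0.05, 5.22% of all genes changed), with a median of 0.79. E75 rose by 3.44 ± 0.25 SE, Hr4 by 3.32 ± 0.48, Hr3 by 1.59 ± 0.23 and Eip93F by 1.30 ± 0.37, while ftz-f1 (-1.81 ± 0.34), usp (-1.28 ± 0.28) and Ecr (-0.52 ± 0.16) fell. E75 had a higher mean at 24 h than in either baseline: 45.0 ± 11.8 FPKM in the JH3 baseline, 517 ± 96.0 FPKM at 24 h (SD, n = 4 each) and 79.1 ± 13.6 FPKM in the 20E baseline (SD, n = 5). Unlike the 22 it stayed up in chronic 20E, and in the libraries taken at 30 min it was higher in the 20E cultures (0.79 ± 0.25 SE, adjusted p = 0.0238 in limma). Hr4 had a lower mean at 24 h than in the 20E baseline, at 51.8 ± 7.79 FPKM (SD, n = 4) and 81.2 ± 36.8 FPKM (SD, n = 5).

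Few markers of cell types passed the test over the same 24 h. None of the 9 neuronal, 9 hemocyte and matrix, 8 muscle, 3 fat body or 4 photoreceptor genes passed the test (limma, adjusted p under 0.05), and at an unadjusted p under 0.05 there were 0, 0, 2, 1 and 0. Of 8 glial genes Gli, one of the 22, and Gs2 (0.85 ± 0.23 SE) rose, and repo was at -0.40 ± 0.35 SE. Of 8 genes of trachea and epithelium verm, a chitin deacetylase, rose (1.02 ± 0.23 SE), and their summed level was 55.3 to 82.4 FPKM in the JH3 baseline and 86.8 to 111 FPKM at 24 h, with no overlap. The neuronal sum was 488 to 718 FPKM and 711 to 874 FPKM. The part of either in the levels of the 22 was not tested.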

How the data were processed

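The authors deposited FPKM values of 14001 genes in 35 libraries. The submitters' processing notes name bcl2fastq, STAR, featureCounts and DESeq2. Libraries were strand-specific, per the labels' protocols. Versions, genome build and gene annotation: not given in the sources used here. Names came from a RefSeq gene table (13989 identifiers matched); it held no product names or sequences for use here, so lists by product name, promoter motifs and protein features were not analysed.

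Each gene's FPKM values fell on even steps, which returned reads and lengths for 13163 genes, all 9873 tested genes included; 100.0% of nonzero values were within 0.03 of a whole read. The steps followed size factors (spread 0.238%) rather than totals (8.18%). The FPKM test was limma 3.58.1 (R 4.3.3) on log2(FPKM + 1) with group and flow cell as terms over 35 libraries, trended prior, robust, two-sided, adjusted over 9873 genes with at least 1 FPKM in 3 libraries. A pseudocount of 1 understates changes of low genes. limma's voom on the recovered reads, leaving out 2 or 4 libraries from the tests, and leaving out those 4 from the limits were alternatives added after the data were seen. The same fit was tested on simulated data: for 30 min libraries of 20E against JH3 cultures, over 9873 genes, it recovered 42% of changes of 0.5, 80% of 1 and 100% of 2 (log2), with 6.79% false calls.

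The 22 genes and all lists were chosen with earlier results of these data known. List symbols were matched without regard to case, so Vg of the fat body list met vg, and phm of the ecdysone list met Phm. These may be other genes than those meant, and neither was called at 24 h of 20E. Genes described by library were the 9 with a symbol; LOC105191412, LOC105186473 and LOC105185337, every gene called in a test and those next to a limit were added, the first 3 after their values were seen. Precision is set by 3 to 6 cultures a group. Alternatives were pseudocounts of 0.1 and 0.5, filters of 0 and 5 FPKM, quantile normalization, no flow cell term, a length covariate, only the compared groups, a replicate block and each library left out.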

Additional observations from a re-analysis of the deposited data

Results flagged for a closer look

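In 8 of 132 checks of a gene in a group of 4 to 6 libraries, 1 library lay far from the rest, by the gap to its nearest neighbour; chance gives about 1 in 20. In 20E baseline replicate 4 these were LOC105185545 at 51.7 FPKM (next 27.3 FPKM) and LOC105182091 at 25.4 FPKM (next 11.0 FPKM). Replicate 2 from 30 min of 20E had kuz at 62.2 FPKM (next 51.6 FPKM) and stumps at 6.08 FPKM (next 5.18 FPKM). In JH3 baseline replicate 2 stumps was at 6.06 FPKM (next 4.55 FPKM). dnr1 was low in replicate 3 from 30 min of 20E, at 18.8 FPKM (next 21.0 FPKM), dap high in replicate 4 from 24 h of 20E, at 41.6 FPKM (next 35.9 FPKM), and LOC105189658 high in replicate 4 from 6 h of JH3, at 21.1 FPKM (next 15.5 FPKM).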

How the results depend on the processing

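The limits gave 23 genes at a pseudocount of 0.1, of which 17 were among the 22, and 22 at 0.5, of which 18 were; CAH1, dnr1, LOC105189157 and LOC109504036 left at both, and LOC105186473 at 0.1. They gave 19 genes (all among the 22, without LOC105185337, LOC105186473 and LOC105189157) at FPKM 5, 23 (all 22 kept) with no filter, 29 (21 of the 22, without LOC105182091) with quantile values, 24 (18 of the 22) without the pair of libraries named above, 24 (19 of the 22) without the 4 libraries under r 0.95, and 19 to 35 with 1 library left out. Within flow cell B only the 24 h limit was applied, and 15 of the 22 met it. The other limits were not tried there, and no library from 24 h of JH3 came from flow cell B. JH3 for 30 min against the 20E baseline kept 0 genes and 0 of the 22 except with a library left out, which gave 0 to 129 genes and 0 to 3 of the 22. JH3 for 6 h gave 12 genes with the length covariate, 3 with only the 2 groups and 4 to 6 with a library left out, with 0 of the 22 in each. For 6 h against 30 min of JH3 these were 67 genes and 3 of the 22 with the length covariate, 1 gene with only the 2 groups, and 6 to 148 genes and 0 to 4 of the 22 with a library left out. For the libraries taken at 30 min the length covariate gave 8 of the 22 (27.2% of all genes called), leaving out the 4 libraries under r 0.95 gave 1 of the 22 (13.5%), only the 2 groups 1041 genes and 0 of the 22, and a library left out 985 to 1983 genes and 0 to 7 of the 22. The cause of these changes was not tested. No direction of the 5 calls reversed.

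Replicate numbers gave no clear pairing of the samples, and 3 to 5 shared numbers a comparison cannot settle it. Deviations of same-numbered libraries correlated at -0.43 to 0.25, -0.02 to 0.51, -0.42 to 0.46 and -0.29 to -0.03 in the 4 comparisons. In the same order, 0 of 3, 2 of 5, 1 of 3 and 0 of 3 libraries correlated best with their own number. With the replicate number as a block 0, 6, 7 and 1960 genes were called, and 0, 0, 0 and 6 of the 22. In groups of 3 to 6 cultures differences under about 0.5 (log2) were often missed in simulation.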
